A study of Mus musculus with 12 samples.

Results

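Sense intronic transcripts are annotated RNAs that lie inside another gene and on the same strand as it. The deposited table of 54345 genes held 313 genes of the biotype sense_intronic. Of these, 159 were above 0 FPKM (fragments per kilobase of transcript, scaled to library size) in at least 3 of the 12 libraries, and these 159 are described here. A further 93 were at 0 in every library and 61 were above 0 in only 1 or 2 libraries. The values that chose the 159 were therefore their own FPKM. At the edge of the rule, the 24 transcripts above 0 in exactly 3 libraries held 3 to 14 reads in total over the 12 libraries, and the 28 just outside it, above 0 in exactly 2 libraries, held 2 to 10.

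An intron is normally cut out of the pre-mRNA as a lariat, opened by a debranching enzyme and degraded in the nucleus by exonucleases and the RNA exosome. RNA from within an intron can still be stable and polyadenylated where it comes from a promoter of its own, from cleavage and polyadenylation inside the intron, or from a pre-mRNA that was not yet spliced. Some such units carry microRNA hairpins. The function of most annotated sense intronic transcripts is not known.

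The libraries were made from H9c2(2-1) cells, an established heart-derived myoblast line that the labels class as WT mouse cells and that the study describes as rat. The reads were placed on the mouse genome in either case. There were 4 groups of 3 libraries, all collected after 6 h: untreated cells (Unt), cells given doxorubicin, an anthracycline that damages heart muscle cells (DOX), cells given doxorubicin with the cardioprotective drug dexrazoxane (D_DXZ), and cells given doxorubicin with MgHCF NCs, magnesium hexacyanoferrate nanocatalysts (D_MgHCF). D_DXZ and D_MgHCF thus both carry doxorubicin, and no group received either protective agent alone. The doses used for sequencing are not given in the sources used here. Nothing in the labels says that the 3 libraries of a group came from separate cultures, so the p-values measure the spread between libraries, which may be technical.

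Of 12 myoblast and muscle markers, 2 reached 1 FPKM in the mean of any group, and Myod1 and Myog stayed under 0.1 FPKM in every group mean. Of 6 fibroblast markers, 3 did so. Their summed FPKM spanned 60.9 to 66.6 for Unt libraries, 140 to 177 for DOX, 108 to 152 for D_DXZ and 30.4 to 63.8 for D_MgHCF. On this deposited scale, 3 of the 5 fibroblast markers tested were higher and 1 lower in DOX vs Unt (limma, Benjamini-Hochberg adjusted p under 0.05). With TPM, the rescaling explained below, 1 was higher and 2 lower. The shares of all genes were 18.6% and 19.9%, and 4.39% and 40.1% with TPM. D_DXZ vs Unt had 2 and 1, and 0 and 2 with TPM, against 15.9% and 18.0%, and 3.66% and 39.6%, of all genes. Of 7 cardiac markers, 1 reached 1 FPKM (Tbx5 was listed at 0), and their sum spanned 9.66 to 11.0 for Unt, 2.21 to 5.0 for DOX, 2.46 to 3.77 for D_DXZ and 14.9 to 25.9 for D_MgHCF. Endothelial markers reached 1 FPKM for 0 of 5 and leukocyte markers for 1 of 6 (Tyrobp was listed at 0). The part of cell identity in the results below was not tested, and in these bulk libraries fewer cells of a kind and less RNA per cell cannot be told apart. Each library had between 16626514 and 19365119 reads on genes. Genes above 0 numbered 23368 to 25456 in D_MgHCF against 18530 to 20660 in the other groups, reads on olfactory and vomeronasal receptor genes 528 to 1061 against 148 to 310, and the lowest correlation between replicates was 0.942 in D_MgHCF against at least 0.989 elsewhere. The deposited FPKM also contain a scaling between libraries: per read, a gene received a higher FPKM in DOX and D_DXZ than in Unt and D_MgHCF. Rescaled so that every library sums to the same total (TPM), the median log2 fold change of the 12434 genes at 1 FPKM or more in at least 3 libraries moved from 0.02 to -1.01 for DOX vs Unt, from -0.04 to -0.95 for D_DXZ vs Unt, from -0.07 to -0.20 for D_MgHCF vs Unt and from -0.02 to 0.87 for D_MgHCF vs DOX. Directions are given below on the deposited scale, with the TPM result where it differs. The plain ratio of a transcript to its own host in the same library does not depend on this scaling. Its tested form, with 0.1 FPKM added to both, does so for transcripts near 0.

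Each of the 159 transcripts had a host, the smallest protein-coding gene that enclosed it on the same strand, or the smallest enclosing gene of another kind where none was coding. The hosts were protein coding for 154 transcripts and comprised 136 different genes. Magi3, a membrane-associated scaffold protein gene, held 9 of the transcripts, and 12 hosts held 2 or more. Chromosome 3 carried 43 of the 159 transcripts and 66 of the 313 annotated genes of the biotype, the most of any chromosome on both counts. The intron was known for 158 transcripts, and 64 lay in the first intron of their host. The median position was 0.401 of the way along the host, and 97 of 159 lay upstream of its midpoint. The transcripts were short, with a median length of 1330 bp and a range of 176 to 8030 bp, and 83 had 1 exon. Their exons overlapped an exon of another gene in 13 cases, in 3 of them the host itself, and 21 shared at least 150 bp at 95% identity or more with a transcript of another gene, so that reads of these could have been assigned to either.

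The most abundant transcript in untreated cells, Gm28119 (ENSMUSG00000100158), is shown whole because it holds a microRNA. It lies at chr9:41581908-41582283 on the plus strand (GRCm38), has 2 exons and is enclosed by CT025619.2, annotated as protein coding, and by the longer non-coding gene 2610203C20Rik. Its first exon contains the whole 77-base hairpin of Mir125b-1 (chr9:41581926-41582002), which occupies bases 19 to 95 of the 298-base transcript. The transcript sequence is from GENCODE M21, the mature microRNA from RefSeq (GRCm38.p6, chr9:41581940-41581961). Capitals mark the hairpin in the transcript, and the seed, bases 2 to 8, in the mature microRNA.
Gm28119: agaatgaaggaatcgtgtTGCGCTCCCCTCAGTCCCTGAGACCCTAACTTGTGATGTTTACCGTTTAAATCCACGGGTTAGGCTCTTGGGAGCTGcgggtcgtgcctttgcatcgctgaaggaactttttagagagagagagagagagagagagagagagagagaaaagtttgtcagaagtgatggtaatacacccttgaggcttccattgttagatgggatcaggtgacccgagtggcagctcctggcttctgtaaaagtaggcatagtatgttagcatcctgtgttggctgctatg
mmu-miR-125b-5p: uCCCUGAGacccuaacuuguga

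Because the libraries were made from RNA held on poly-T beads, the last 50 bases of the 10 transcripts with the highest mean FPKM are also shown, from the longest GENCODE M21 transcript of each. Capitals mark the canonical polyadenylation signal AATAAA or its common variant ATTAAA, searched on the transcript's own strand.
AC154335.1: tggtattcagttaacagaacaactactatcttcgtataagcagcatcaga
Gm43566: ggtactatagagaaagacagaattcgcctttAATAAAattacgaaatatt
Gm28119: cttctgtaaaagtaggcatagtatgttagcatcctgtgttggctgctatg
Gm29093: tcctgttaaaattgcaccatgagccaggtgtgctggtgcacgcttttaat
Gm37963: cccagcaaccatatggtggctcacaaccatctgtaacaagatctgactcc
Gm14376: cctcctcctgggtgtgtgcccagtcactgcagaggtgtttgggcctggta
B930095G15Rik: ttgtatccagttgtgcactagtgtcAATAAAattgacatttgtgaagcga
Gm15634: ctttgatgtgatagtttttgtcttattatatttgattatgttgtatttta
Gm28404: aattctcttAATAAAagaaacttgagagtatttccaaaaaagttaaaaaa
Gm48194: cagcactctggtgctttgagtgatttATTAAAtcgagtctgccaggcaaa

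Of these 10, 3 ended with AATAAA and 4 with either form. Among all 159 transcripts, AATAAA stood in the last 50 bases of 35, or 22.0%. The share was 35.5% of 1416 antisense genes, 38.6% of 1474 lincRNAs and 59.3% of 16042 protein-coding genes that passed the same detection rule and had a sequence. A stretch of 20 bases with at least 15 A, a place where poly-T could bind inside an RNA, was found in 53 of the 159 (33.3%), against 23.6%, 27.1% and 34.2% of the antisense, lincRNA and coding genes. In the same order, the median lengths were 1330, 982, 1378 and 3207 bp and the median shares of G and C 43.1%, 49.7%, 47.4% and 50.2%. The shares with such a stretch were not adjusted for either. A match is a feature of the annotated letters only. The annotated end of a transcript need not be the end that was captured.

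The transcripts were present at low levels, and most of the reads came from a few of them. The median of their mean FPKM over the 12 libraries was 0.0676, with a range from 0.00372 to 3.72; 10 had a mean of at least 1 FPKM and 97 were under 0.1. The median transcript had 20 reads over all 12 libraries, 136 had fewer than 100, and only B930095G15Rik had more than 1000. The 5 transcripts with the most reads held 34.9% of all reads on the 159. The rule kept 50.8% of the annotated sense intronic genes, close to the 51.4% of antisense genes, while it kept 27.5% of lincRNAs and 72.9% of coding genes. Only 24 transcripts were above 0 in all 12 libraries. Of these, the highest group mean was in Unt for 8, in D_MgHCF for 8, in DOX for 6 and in D_DXZ for 2. The lowest was in D_MgHCF for 9, in Unt for 7, in DOX for 4 and in D_DXZ for 4.

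Most hosts were far more abundant than the transcript inside them. On the FPKM scale, the median transcript stood at 1.53% of its host's mean level, the host was the higher of the 2 in 149 cases, and it was more than 10 times higher in 126. The level of a transcript followed that of its host only loosely (Spearman's rho of the means 0.153 across genes, which share libraries and are not independent). In 10 cases the transcript was the higher of the 2. These included AC154335.1, which had the highest mean of all 159 at 3.72 FPKM and lies in intron 5 of Tmem161b, and Gm44867, which lies in intron 3 of Plekha7, an adherens junction protein gene that was itself under 0.3 FPKM in every library. Gm28119 and Gm48194 were also in this set, since their hosts CT025619.2 and AC134869.1 were listed at 0 in at least 11 of the 12 libraries.

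**Figure D1:**
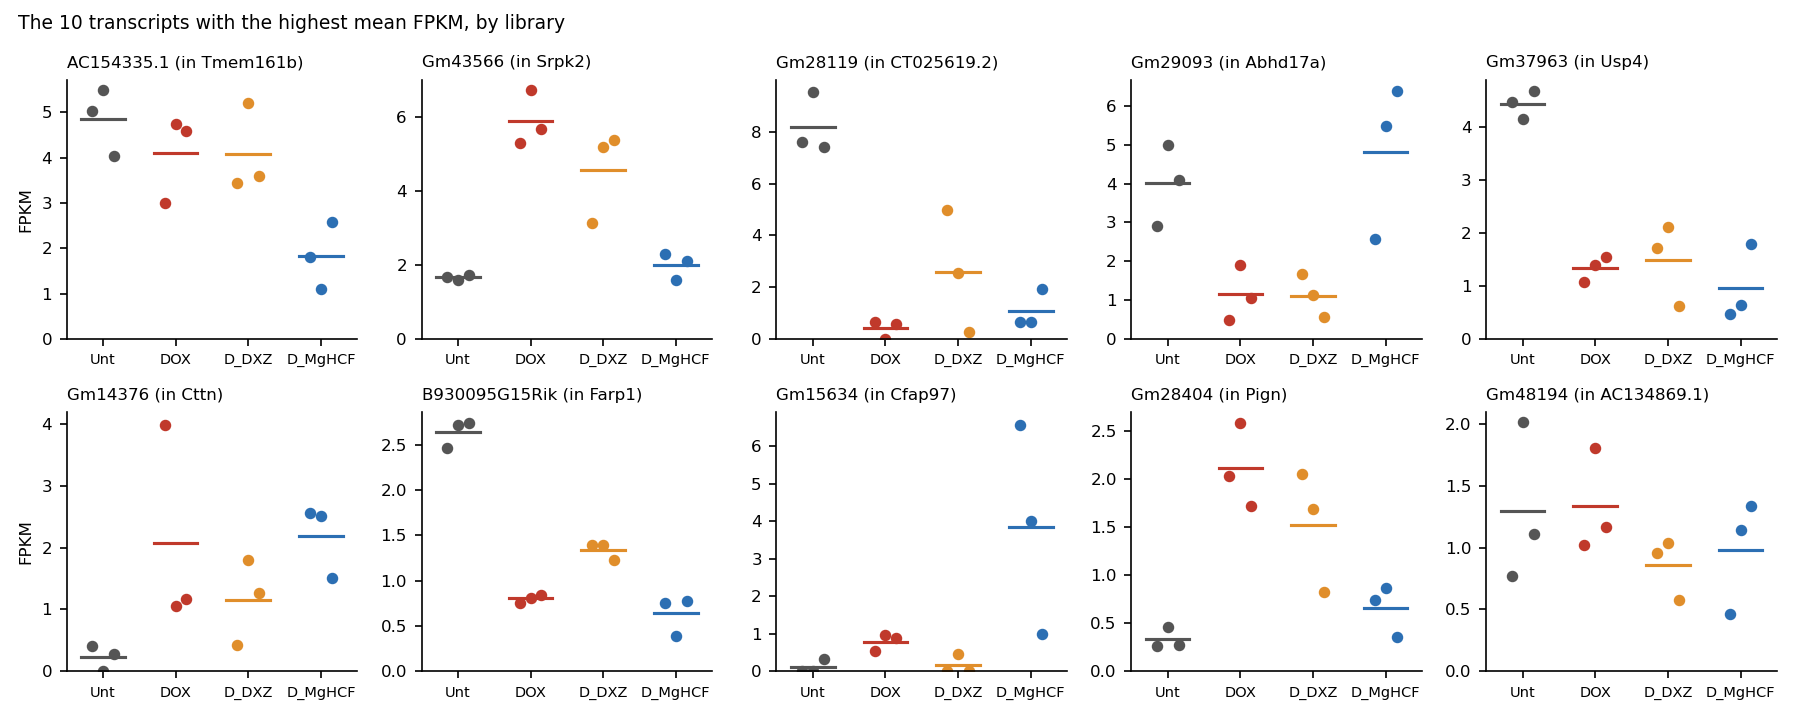
FPKM (vertical axis, from 0) of the 10 sense intronic transcripts with the highest mean, 1 point per library and a bar at the mean of the 3 libraries of each group (horizontal axis). Gm28119, Gm37963 and B930095G15Rik sit highest in all 3 Unt libraries, Gm43566 and Gm28404 have their highest group mean in DOX, and Gm15634 in D_MgHCF, where its 3 libraries range from 0.994 to 6.58 FPKM.

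Fewer of the transcripts were seen, and fewer reads fell on them, in the DOX and D_DXZ libraries. Between 109 and 115 of the 159 were above 0 in the Unt libraries and 112 to 116 in D_MgHCF, against 76 to 94 in DOX and 81 to 99 in D_DXZ. The 3 Unt libraries had 67.9, 73.1 and 80.1 RPM on these transcripts (reads per 1000000 reads on genes), and the 3 D_MgHCF libraries had 60.3, 67.2 and 70.8. The 3 DOX libraries had 23.5, 24.6 and 27.1 RPM, and the 3 D_DXZ libraries 28.1, 32.7 and 38.5. Both groups thus lay under every Unt and D_MgHCF library. Reads on the host genes also took a smaller share in DOX (7417 to 7789 RPM) than in Unt (10391 to 10728 RPM). A fall in share was not confined to transcripts and hosts. With TPM, the median log2 fold change of the 12434 genes at 1 FPKM or more in at least 3 libraries was -1.01 for DOX vs Unt and -0.95 for D_DXZ vs Unt.

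Set against the host reads of the same library, the difference was smaller but still separated the groups. The transcripts had 6.50, 6.82 and 7.70 reads per 1000 host reads in Unt, 3.13, 3.31 and 3.47 in DOX, 3.60, 4.29 and 4.67 in D_DXZ, and 5.68, 7.04 and 7.81 in D_MgHCF. No DOX or D_DXZ library reached the lowest Unt or D_MgHCF library. Without the 5 most-read transcripts, Unt libraries had 3.78 to 4.67, D_MgHCF 4.11 to 6.12, DOX 1.82 to 2.15 and D_DXZ 1.96 to 2.99, and DOX and D_DXZ stayed under the other groups. These totals are given as a description with no test, since the members were chosen on the same values. The totals weigh the most-read genes most. Over the 156 single pairs fitted below, the median log2 difference between transcript and host leaned the other way, 0.22 in DOX vs Unt and 0.26 in D_DXZ vs Unt. That fitted form repeats the host with its sign turned for transcripts near 0. The 9 transcripts of Magi3 together had 9 to 14 reads per Unt library, 9 to 20 per D_MgHCF library, 1 to 5 per DOX library and 1 to 11 per D_DXZ library.

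**Figure D2:**
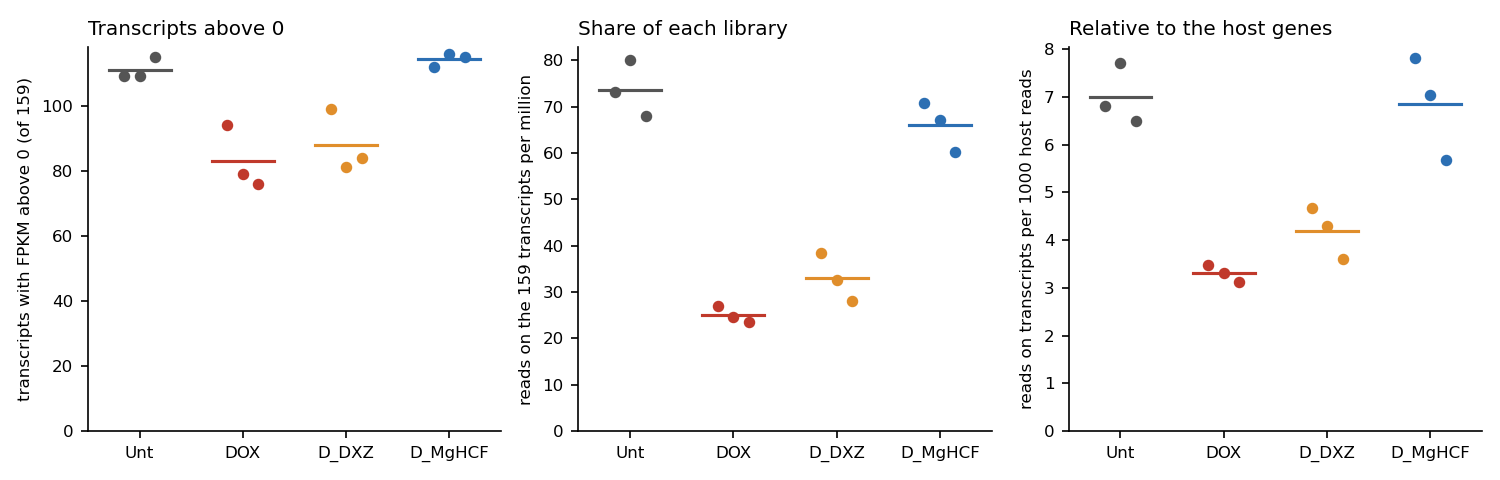
Per library (points) and group mean (bars), all vertical axes from 0: the number of the 159 transcripts above 0 FPKM, their RPM, and their reads per 1000 reads on their host genes. The DOX and D_DXZ points lie under all Unt and D_MgHCF points in each panel.

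The place of the reads within the hosts is given in the same way, with no test. Transcripts upstream of the host's midpoint took 42.2% to 42.7% of the reads of Unt libraries, 54.9% to 67.5% for D_MgHCF, 58.1% to 62.2% for DOX and 48.1% to 56.8% for D_DXZ. Without the 5 most-read transcripts the shares were 49.6% to 51.7% for Unt, 53.6% to 67.2% for D_MgHCF, 50.5% to 58.5% for DOX and 49.4% to 56.6% for D_DXZ. The DOX range then overlapped that of Unt, and the D_MgHCF range did not. Transcripts in the first intron took 27.7% to 30.6% of the remaining reads in Unt, 36.3% to 47.0% in D_MgHCF, 32.8% to 35.4% in DOX and 25.7% to 38.0% in D_DXZ. Here both D_MgHCF and DOX lay above Unt.

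DOX vs Unt asks what doxorubicin changed after 6 h. Of the 159 transcripts, 22 changed (limma, Benjamini-Hochberg adjusted p under 0.05), 17 of them lower and 5 higher in DOX. That is 13.8%, against 38.4% of all 25044 genes tested (18.6% higher and 19.9% lower). The median log2 difference was -0.01 over the transcripts and 0 over all genes. The low counts of these transcripts limit what could be called. With TPM, 41 changed, 40 of them lower and 1 higher, against 40.1% of all genes lower and 4.39% higher. Of the 22 called transcripts, 11 had a host that changed the same way, 4 had a host that was not called or not tested, and 7 moved against a host that changed the other way. Among the 133 tested hosts, 26 rose and 58 fell. How often all nested pairs moved against each other in this way is not given. Counts of transcripts called against their host, here and below, are therefore descriptive only.

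Gm28119 fell most in DOX. It was at 7.60, 9.52 and 7.42 FPKM in the 3 Unt libraries (57, 68 and 54 reads) and at 0.663, 0 and 0.580 in DOX (3, 0 and 2 reads). The groups did not overlap, the DOX mean was 0.0507 of the Unt mean, and the log2 fold change was -2.73 (SE 0.49, limma adjusted p = 0.00107). It was intermediate and scattered in D_DXZ, at 4.99, 2.56 and 0.251 FPKM, and at 0.639, 0.659 and 1.91 in D_MgHCF. Both groups were lower than Unt, with log2 fold changes of -1.61 (limma adjusted p = 0.0261) and -2.20 (limma adjusted p = 0.00587). The D_DXZ call was lost when any 1 Unt library or D_DXZ replicate 3 was left out. It was also lost with 0.1 FPKM added in place of 1, without the filter on low values, in a fit of the 2 groups alone and with quantile normalization. The enclosing non-coding gene 2610203C20Rik was also highest in Unt, with 1.41 ± 0.291 FPKM in Unt (SD, n = 3), 0.212 ± 0.0655 in DOX, 0.519 ± 0.205 in D_DXZ and 0.205 ± 0.0488 in D_MgHCF. CT025619.2 and Mir125b-1 itself were listed at 0 throughout. The mature microRNA is far shorter than what such a library keeps, so its level was not measured here.

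B930095G15Rik (chr14:121248706-121253971, plus strand, 4715 bp) lies in intron 13 of Farp1 and rests on the most reads. It stood at 2.47, 2.72 and 2.74 FPKM in Unt, at 0.754, 0.810 and 0.843 in DOX, at 1.39, 1.39 and 1.22 in D_DXZ and at 0.757, 0.383 and 0.769 in D_MgHCF. Every treated library was under every Unt library. The log2 fold change was -1.01 in DOX (SE 0.13, limma adjusted p = 0.000124), where Farp1 did not pass the test (-0.20, adjusted p = 0.352). Its ratio to Farp1 fell in DOX by 1.40 on the log2 scale (SE 0.36, limma adjusted p = 0.0105). In D_MgHCF it fell as well (-1.16, adjusted p = 0.000134), but there Farp1 fell with it (-1.61, adjusted p = 4.30e-05) and the difference in the ratio was -0.27 (SE 0.36).

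Gm43566 and Gm28404 went the other way. Gm43566 (chr5:23674739-23675546, minus strand, 1 exon) lies in intron 2 of Srpk2, which encodes a kinase of SR splicing factors. It was at 1.67, 1.60 and 1.72 FPKM in Unt and at 5.30, 6.75 and 5.67 in DOX, while Srpk2 was at 5.64, 5.58 and 5.01 in Unt and at 3.89, 3.78 and 3.88 in DOX. The transcript rose 3.55-fold (log2 fold change 1.37, SE 0.18, limma adjusted p = 0.00012), its host fell (-0.40, adjusted p = 0.00546), and the transcript went from 28.7% to 34.4% of its host's level in Unt to 136% to 178% in DOX. The ratio rose by 2.24 on the log2 scale (SE 0.35, limma adjusted p = 0.000568). With TPM the rise of the transcript itself was 0.35 and missed the threshold, while its ratio to Srpk2 kept its call. Gm28404 (chr1:105564126-105564578, minus strand), in intron 23 of Pign, a gene of GPI anchor synthesis, was at 0.263, 0.461 and 0.271 FPKM in Unt and at 2.04, 2.58 and 1.72 in DOX. It rose 6.37-fold (log2 fold change 1.22, SE 0.21, limma adjusted p = 0.000794) and Pign rose less (0.57, adjusted p = 0.00283).

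6 transcripts fell in DOX although their hosts rose. Gm29093 (chr10:80587965-80589790, minus strand), in intron 1 of Abhd17a, which encodes an enzyme that removes palmitate from proteins, was at 2.92, 5.0 and 4.10 FPKM in Unt and at 0.483, 1.91 and 1.06 in DOX. Abhd17a rose over the same libraries from 43.9 ± 2.45 to 121 ± 8.54 FPKM (SD, n = 3). The transcript's log2 fold change was -1.25 (limma adjusted p = 0.0127) and its ratio to the host fell by 3.32 on the log2 scale (SE 0.54, limma adjusted p = 0.000672). The fall in FPKM lost its call without Unt replicate 2 or DOX replicate 1, and with quantile normalization.

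Gm37963 (chr9:108389082-108390205, plus strand), in intron 20 of the deubiquitinase gene Usp4, was at 4.47, 4.15 and 4.67 FPKM in Unt and at 1.07, 1.40 and 1.55 in DOX. It fell (log2 fold change -1.22, limma adjusted p = 0.00537, not called with quantile normalization) while Usp4 rose (0.64, adjusted p = 0.00451). Gm42664 (chr3:119743208-119746446, minus strand), in intron 7 of Ptbp2, which encodes a splicing regulator, had 92, 79 and 51 reads in Unt and 9, 5 and 15 in DOX. Its log2 fold change was -0.64 (limma adjusted p = 0.00359) against 0.96 for Ptbp2. Neither pair of groups overlapped.

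Gm43328 (chr3:105732444-105733877, minus strand), in intron 6 of the small GTPase gene Rap1a, had 15, 23 and 13 reads in Unt and 0 in each DOX library. Against the 3 counts that a count of 0 over the group allows, it was at least 9.15-fold lower in DOX, a limit that covers counting error only (log2 fold change -0.57, limma adjusted p = 0.00474). Rap1a rose by 1.14 (adjusted p = 4.81e-05). The other 2 were Gm42659 in intron 5 of Capza1, an actin capping protein gene, with 52 reads over the Unt libraries and 6 over DOX, and Gm38190 in Tiprl, named here only to complete the count. These directions rest on the scaling. With TPM none of the 7 was called against its host and 1 other transcript, Gm28404, was, and with quantile normalization 3 of the 7 (Gm42664, Gm43328 and Gm42659) were, beside Gm47920.

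The ratio to the host was tested for 156 pairs. It changed in 67, 42 higher and 25 lower, against 37.4% of all 1871 nested same-strand pairs in the table (21.8% higher and 15.6% lower). With TPM it rose in 70 and fell in 11, against 34.4% and 9.35% of all nested pairs. For a transcript near 0 the ratio only repeats the host with its sign turned, so pairs with a mean of at least 10 reads in the higher group are counted separately. No share of all nested pairs at that level of reads is given beside them. These counts, here and in the comparisons below, are therefore descriptive only. Of 23 such pairs, 13 changed, with 4 higher (Gm43566, Gm28404, Gm47920 and Gm43031) and 9 lower, and the split was 5 higher and 9 lower with TPM. Gm43031 in Akap9 was named after its values were seen. Gm47920, in intron 1 of the transcriptional coregulator gene Zmiz1, rose relative to a host that fell (log2 difference 3.91, SE 0.84, limma adjusted p = 0.00374), but its exons overlap the antisense gene Zmiz1os1, with which it shares 193 identical bases. Zmiz1os1 was itself at 0.0851 ± 0.0320 FPKM in Unt and 0.219 ± 0.120 in DOX.

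**Figure D3:**
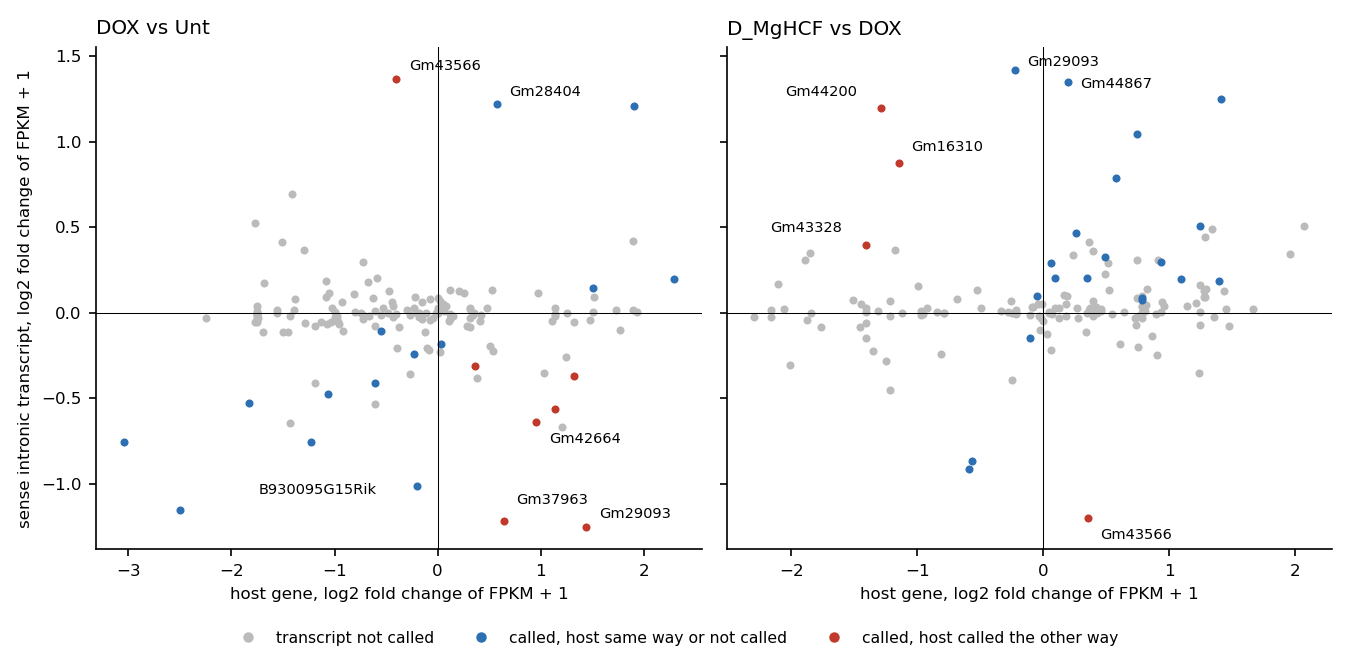
Log2 fold change (FPKM + 1) of each sense intronic transcript (vertical axis) against that of its host (horizontal axis) for the 156 pairs with a tested host, in DOX vs Unt and D_MgHCF vs DOX. Gray points were not called, blue points were called with a host that moved the same way or was not called, and red points, 7 in the first panel and 4 in the second, were called against a host called the other way.

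D_DXZ vs Unt asks what remained changed when dexrazoxane was given with doxorubicin. 18 of the 159 transcripts changed, 13 lower and 5 higher (limma, adjusted p under 0.05), against 33.9% of all genes (15.9% higher and 18.0% lower). At an unadjusted p under 0.05, 30 differed, against 40.4% of all genes. With TPM, 38 changed, 37 of them lower and 1 higher, against 39.6% of all genes lower and 3.66% higher. D_DXZ and DOX are compared with the same Unt libraries, so their values are set side by side only. Gm43566 was at 3.14, 5.19 and 5.38 FPKM in D_DXZ (log2 fold change 1.04 against Unt, limma adjusted p = 0.00102), and Gm28404 at 2.05, 1.68 and 0.827 (0.89, adjusted p = 0.0068). With TPM neither rise was called (Gm43566 0.17, limma adjusted p = 0.437, and Gm28404 0.45, limma adjusted p = 0.153). Gm29093 was at 1.67, 1.12 and 0.549 FPKM (-1.26, adjusted p = 0.0143) and was the 1 transcript called against a called host on the deposited scale, as Abhd17a rose by 1.08 (adjusted p = 5.77e-05). With TPM and with quantile normalization it was not, while 2 others and 1 other were. Without D_MgHCF replicate 3 there were 5, Gm29093 among them. Gm37963 was at 1.72, 2.12 and 0.611 FPKM (-1.18, adjusted p = 0.00755). Gm43328 had 8, 2 and 1 reads. Its FPKM did not pass the test (-0.35, adjusted p = 0.0606), while its ratio to Rap1a was lower than in Unt (-2.24, adjusted p = 0.0137), a call lost without Unt replicate 2 or D_DXZ replicate 3. The ratio to the host changed in 42 of 156 pairs, 27 higher and 15 lower, against 25.8% of all nested pairs, 15.4% higher and 10.4% lower. With TPM it changed in 72, 64 higher and 8 lower, against 30.7% and 7.27% of all nested pairs. Among the 22 pairs with at least 10 reads it changed in 6, 1 higher and 5 lower, and in 3 without Unt replicate 2.

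D_DXZ vs DOX asks whether dexrazoxane changed the response itself. 0 of the 159 transcripts and 0.0% of all genes changed (limma, adjusted p under 0.05), and limma's voom on the recovered reads also called 0 transcripts. At an unadjusted p under 0.05, 10 transcripts differed, against 9.54% of all genes. The smallest adjusted p was 0.133, that of Gm47140 in intron 5 of the zinc finger gene Zfp445. Gm47140 had 10, 9 and 8 reads in D_DXZ, 1, 1 and 3 in DOX and 1, 0 and 0 in Unt, and the D_DXZ libraries lay above all others on the FPKM scale. It was higher than in Unt (log2 fold change 0.53, limma adjusted p = 0.00017). It shares 276 bp at 97.1% identity with a transcript of its own host, so some of its reads may belong to Zfp445. The ratio to the host changed in 0 pairs, against 0.214% of all nested pairs, 0.0534% higher and 0.16% lower (13 of the 156 at an unadjusted p under 0.05).

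**Figure D4:**
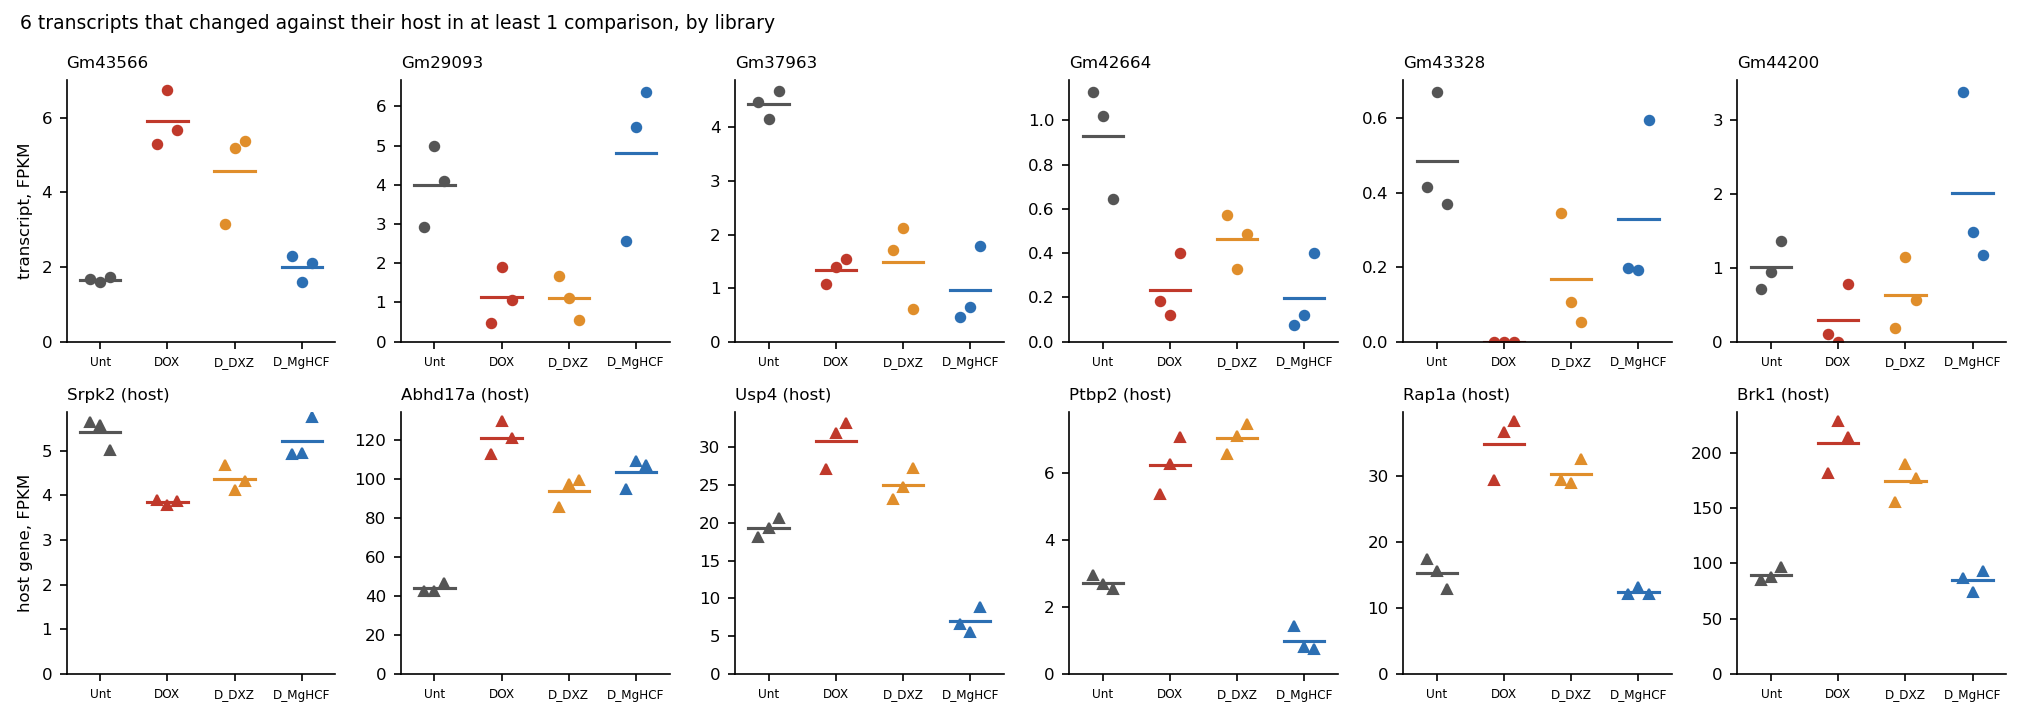
FPKM (vertical axes, from 0) of 6 transcripts (top row, circles) and of the host gene of each (bottom row, triangles), 1 symbol per library and a bar at the mean of 3 libraries, in the 4 groups. In DOX, Gm43566 lies above and Srpk2 below the Unt libraries, Gm29093, Gm37963, Gm42664 and Gm43328 lie below and their hosts above them, and Gm44200 overlaps Unt while Brk1 is higher.

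D_MgHCF vs Unt asks what remained changed when the nanocatalyst was given with doxorubicin. 30 of the 159 transcripts changed, 18 higher and 12 lower (limma, adjusted p under 0.05), against 40.1% of all genes (24.3% higher and 15.7% lower). At an unadjusted p under 0.05, 46 differed, against 49.2% of all genes. Quantile normalization gave a split of 7 higher and 20 lower (17.0% and 18.5% of all genes), TPM one of 25 and 18 (26.8% and 19.9%). The count was 17 without Unt replicate 2 or without Unt replicate 3, and 40 without D_MgHCF replicate 3. Higher calls made up 11.3% of the sense intronic transcripts, 29.0% of antisense genes, 27.5% of lincRNAs and 26.5% of coding genes. 4 of the 159 were above 0 only in D_MgHCF libraries. These met the detection rule only there, so their higher level is not a finding. They make up 3 of the 18 higher calls, and 3 of the higher calls of D_MgHCF vs DOX.

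Gm44867 (chr7:116281511-116282885, minus strand, 4 exons), in intron 3 of Plekha7, was seen almost wholly in D_MgHCF. It had 21, 30 and 18 reads there and between 0 and 2 reads in each of the other 9 libraries. In FPKM it was at 1.89, 2.22 and 1.38 in D_MgHCF and at 0.0750, 0.0787 and 0.154 in Unt. It rose (log2 fold change 1.35, SE 0.11, limma adjusted p = 3.16e-05), and Plekha7 rose slightly from a level near 0 (0.18, adjusted p = 0.00131).

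Gm15634 (chr8:46152610-46156100, plus strand), in the intron of Cfap97, a gene named for cilia, had 68, 50 and 12 reads in D_MgHCF and 0, 0 and 4 in Unt (log2 fold change 1.94, SE 0.40, limma adjusted p = 0.00388). The 3 D_MgHCF libraries were far apart for this transcript and also for Cfap97, at 10.6, 6.83 and 2.09 FPKM. In DOX, from 15 reads, Gm15634 had a mean of 0.788 FPKM against 0.111 in Unt, without overlap but not called (limma adjusted p = 0.23). Its ratio to Cfap97 was above Unt by 4.26 on the log2 scale in DOX, where Cfap97 fell, and by 4.30 in D_MgHCF (limma adjusted p = 0.00305 and 0.0066). Between D_MgHCF and DOX the ratio differed by 0.04 (SE 0.88). Gm14376 (chr7:144469533-144469993, minus strand), in intron 1 of Cttn, the cortactin gene, was at 0.401, 0 and 0.276 FPKM in Unt and at 2.56, 2.51 and 1.51 in D_MgHCF (1.38, adjusted p = 0.0131, lost without Unt replicate 2). It was also higher in DOX than in Unt (1.21, limma adjusted p = 0.0213), with group means of 2.07 FPKM in DOX and 2.20 in D_MgHCF. That DOX call was lost with TPM, without the filter on low values, and without Unt replicate 2 or DOX replicate 1. The same held in a fit of the 2 groups alone and with voom on the recovered reads per summed reads. Between D_MgHCF and DOX the log2 fold change of Gm14376 was 0.17 (limma adjusted p = 0.724). Cttn did not pass the test in D_MgHCF vs Unt (-0.19, adjusted p = 0.522), where the ratio rose by 3.27 (adjusted p = 0.009).

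Gm15708 (chr5:144277061-144280513, plus strand), in intron 2 of Bri3, had 94, 92 and 47 reads in D_MgHCF and 14, 9 and 7 in Unt (log2 fold change 1.14, limma adjusted p = 0.000832). Its exons overlap Baiap2l1, which was itself at 1.22 ± 0.106 FPKM in D_MgHCF and 0.511 ± 0.141 in Unt, and it shares near-identical sequence with 14 genes, so its reads are uncertain. Of the transcripts that fell, AC154335.1 was at 5.03, 5.49 and 4.04 FPKM in Unt and 1.81, 1.09 and 2.58 in D_MgHCF (-1.08, adjusted p = 0.00437) and its host Tmem161b fell with it (-0.67, adjusted p = 0.002). Gm37963 fell to 0.466, 0.641 and 1.79 FPKM (-1.52, adjusted p = 0.00218) beside Usp4 (-1.37, adjusted p = 9.95e-05).

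2 transcripts were called against their host, both from few reads. Of these, Gm42701 in intron 1 of Magi3 is among the 4 seen only in D_MgHCF (3, 2 and 1 reads), so its call is not a finding. Gm47140 had 8, 6 and 3 reads (log2 fold change 0.22, limma adjusted p = 0.0215) while Zfp445 fell. Its call was lost without Unt replicate 2 or 3 or D_MgHCF replicate 1 or 2, without the filter on low values and with quantile normalization. With TPM 5 transcripts were called against their host, Gm14376, Gm42701 and Gm47140 among them. With quantile normalization only 1 other was. Voom on the recovered reads gave 6, and the fit without D_MgHCF replicate 3 gave 8, both with Gm42701 and Gm47140. The ratio to the host changed in 35 of 156 pairs, 27 higher and 8 lower, against 16.0% of all nested pairs (11.3% higher and 4.76% lower). Among the 32 pairs with at least 10 reads it changed in 6, all of them higher, and in 2 when D_MgHCF replicate 1 or D_MgHCF replicate 2 was left out, in 3 without Unt replicate 1 or Unt replicate 2.

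D_MgHCF vs DOX asks how the nanocatalyst changed the response to doxorubicin. 24 of the 159 transcripts changed, 20 higher and 4 lower in D_MgHCF (limma, adjusted p under 0.05), against 51.5% of all genes (31.4% higher and 20.1% lower). With TPM, 46 changed, all higher, against 53.2% of all genes higher and 6.7% lower. Quantile normalization gave 7 higher and 10 lower, against 18.5% and 19.6% of all genes, so the balance of directions depended on the scaling. Of the 24, 14 had a host that changed the same way and 4 moved against a called host.

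Those 4 were Gm43566, Gm44200, Gm16310 and Gm43328. None of the 4 was called against its host with TPM or with quantile normalization, where 3 and 4 other transcripts were. Gm43566 returned to 2.30, 1.60 and 2.12 FPKM in D_MgHCF, beside 1.67, 1.60 and 1.72 in Unt, and its ratio to Srpk2 was lower than in DOX by 1.94 on the log2 scale (SE 0.35, limma adjusted p = 0.00129). Its own fall from DOX (-1.20, adjusted p = 0.000248) missed the threshold with TPM (-0.27), while the ratio kept its call. Gm43328 had 6, 7 and 21 reads in D_MgHCF where DOX had 0, so that it was at least 6.32-fold higher by the same limit, while Rap1a was lower (-1.41, adjusted p = 1.31e-05). Its own call (adjusted p = 0.0252) was lost without D_MgHCF replicate 3, without any 1 DOX library, without the filter on low values and with quantile normalization. Gm16310 (chr16:92094568-92096490, plus strand), in intron 1 of Mrps6, a mitochondrial ribosomal protein gene, had 40, 41 and 15 reads in D_MgHCF and 4, 1 and 6 in DOX (log2 fold change 0.87, limma adjusted p = 0.00923), while Mrps6 went from 75.4 ± 14.5 FPKM in DOX to 33.3 ± 4.53 in D_MgHCF (SD, n = 3).

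Gm44200 (chr6:113607475-113611527, plus strand), in intron 1 of Brk1, a subunit of the actin-regulating WAVE complex, had 47, 25 and 19 reads in D_MgHCF and 1, 0 and 6 in DOX (log2 fold change 1.20, limma adjusted p = 0.0104). Brk1 was lower (-1.29, adjusted p = 2.27e-05). The exons of Gm44200 overlap those of the antisense gene Gm44199, which was at 8.76, 5.26 and 3.03 FPKM in D_MgHCF and 0.446, 0.105 and 0.117 in DOX. The strand setting of the counting is not given, so reads of these 2 genes cannot be told apart.

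Gm29093 was higher in D_MgHCF than in DOX, at 2.56, 5.47 and 6.38 FPKM against 0.483, 1.91 and 1.06 (log2 fold change 1.42, SE 0.34, limma adjusted p = 0.00542), while Abhd17a was at 104 ± 7.87 FPKM in D_MgHCF. Gm28404 was lower (-0.92, adjusted p = 0.00424; -0.28 and not called with TPM), as was AC154335.1 (-0.87, adjusted p = 0.00886), for which the sign turned with TPM (0.01). Gm37963 and B930095G15Rik did not pass the test against DOX (adjusted p = 0.392 and 0.368), with log2 fold changes of -0.31 (SE 0.28) and -0.15 (SE 0.13). The ratio to the host changed in 62 of 156 pairs, 37 higher and 25 lower, against 37.3% of all nested pairs (19.7% higher and 17.6% lower). With TPM 17 were higher and 53 lower, against 11.1% and 28.2% of all nested pairs. Among the 29 pairs with at least 10 reads it changed in 11, 10 higher and Gm43566 lower (9 and 4 with TPM), and in 7 without DOX replicate 3. Besides Gm29093, Gm44200, Gm16310, Gm43328 and Gm44867, the transcripts Gm37963, Gm14376, B930095G15Rik and Gm42664 were among the 10, and their hosts Usp4, Cttn, Farp1 and Ptbp2 were all lower in D_MgHCF than in DOX. The last was Gm42829 in Arpc3, named after its values were seen.

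Enzymes that open, trim or prevent intronic RNA were read from a list of 24 genes of the nuclear exosome and its adaptors, lariat and exonuclease decay, and the control of intronic polyadenylation. 23 were tested. Exosc6 was listed at 0. In DOX vs Unt 4 were higher and 11 lower, in D_DXZ vs Unt 3 and 11, in D_MgHCF vs Unt 0 and 16, in D_DXZ vs DOX 0 and 0, and in D_MgHCF vs DOX 6 and 13 (limma, adjusted p under 0.05). With TPM these were 0 higher and 21 lower, 0 and 21, 0 and 17, 0 and 0, and 12 and 4. The median log2 fold changes on the deposited scale were -0.63, -0.49, -0.74, 0.08 and -0.53. Leaving out D_DXZ vs DOX, the shares of all genes were 18.6% higher and 19.9% lower, 15.9% and 18.0%, 24.3% and 15.7%, and 31.4% and 20.1%. With TPM they were 4.39% and 40.1%, 3.66% and 39.6%, 26.8% and 19.9%, and 53.2% and 6.7%. All 23 reached 1 FPKM in the mean of any group, and no share of genes at that level is given. The counts for this list are therefore descriptive only. Dbr1, the lariat debranching enzyme, was at 14.0 ± 0.384 FPKM in Unt, 1.97 ± 1.02 in DOX, 2.24 ± 0.761 in D_DXZ and 13.7 ± 1.47 in D_MgHCF (SD, n = 3 each). It fell in DOX (log2 fold change -2.39, SE 0.23, limma adjusted p = 2.53e-05) and its log2 fold change between D_MgHCF and Unt was -0.04 (SE 0.23, adjusted p = 0.915). Its fall in DOX and its higher level in D_MgHCF than in DOX were also called with TPM and with quantile normalization.

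Xrn2, a nuclear exonuclease that degrades RNA from its 5′ end, rose in DOX from 26.1 ± 0.816 to 53.9 ± 6.07 FPKM (log2 fold change 1.02, limma adjusted p = 0.000176) on the deposited scale, but was at -0.32 (adjusted p = 0.217) with TPM. It fell to 14.4 ± 3.19 FPKM in D_MgHCF. Skiv2l2, the helicase that feeds RNA to the nuclear exosome, fell in all 3 treated groups against Unt, from 14.9 ± 0.918 FPKM to 4.46 ± 0.370 in DOX, 5.99 ± 1.26 in D_DXZ and 5.12 ± 2.75 in D_MgHCF. Exosc10, a catalytic subunit of the nuclear exosome, was at 33.7 ± 2.59 FPKM in Unt and 39.6 ± 5.69 in DOX (0.22, adjusted p = 0.212). In that comparison it was called lower with TPM (-1.11, adjusted p = 1.86e-05) and with quantile normalization (-0.66, adjusted p = 0.00159). It fell to 11.8 ± 1.24 in D_MgHCF (log2 fold change -1.44, limma adjusted p = 3.45e-05). Whether the levels of these genes bear on the transcripts above was not tested.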

How the data were processed

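Poly-T bead mRNA of 12 libraries was prepared with a NEBNext Ultra kit and sequenced as 150 bp paired reads. The authors deposited FPKM per gene, and the submitters' processing notes name HISAT2 2.0.5 and GRCm38/mm10. The counting program, annotation release and strand setting are not given in the sources used here. The deposited FPKM times gene length gave whole reads (tolerance 0.01) for 100% of values in every library, and these recovered reads are the counts quoted.

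Transcripts and hosts were matched by coordinates, and biotypes and sequences were read from GENCODE M21 (159 of 159 matched; 158 with identical coordinates); microRNA sequences are from RefSeq (GRCm38.p6). Near-identical copies were sought with BLAST 2.17.0.

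limma 3.58.1 (R 4.3.3) was fitted to log2(FPKM + 1) of the 25044 genes above 0 in at least 3 libraries, 4 groups in 1 fit, with a trended spread. Fold changes on this scale understate those of low genes; folds in words are ratios of mean FPKM. Ratios to the host were fitted as differences of log2(FPKM + 0.1) over 1871 nested pairs. Benjamini-Hochberg adjusted p under 0.05 was the threshold, adjusted over all genes or all pairs. Tests were checked on simulated data. No result of that check is given for genes with as few reads as most of these transcripts, or for the ratios to the host. The check is therefore no measure of how the tests perform at such low reads or on ratios. The members, lists and rules were chosen with earlier results of these data known. Named were the 10 highest transcripts, up to 3 largest rises and 3 largest falls per comparison (level at least 0.5 FPKM without overlap, and ratio with at least 10 reads), up to 5 called against their host, and up to 4 decay genes.

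Intervals and limits cover counting error only. Depth was 16626514 to 19365119 reads on genes per library. Alternatives were other pseudocounts, filters, scalings (TPM, quantile), voom on recovered reads, fits of 2 groups, a replicate block and leaving out each library.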

Additional observations from a re-analysis of the deposited data

How the results depend on the processing

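Depth limits these results: 136 of 159 transcripts had under 100 reads in all. The counts of transcripts called depended on the filter and the scaling. For DOX vs Unt (22), D_DXZ vs Unt (18), D_MgHCF vs Unt (30) and D_MgHCF vs DOX (24), requiring also a 2-fold change left 8, 4, 8 and 6; a minimum of 0.5 FPKM left 14, 9, 15 and 10, fewer genes being tested. Without any filter the first 3 counts were 14, 10 and 15. TPM gave 41, 38 and 46 for DOX vs Unt, D_DXZ vs Unt and D_MgHCF vs DOX, and voom on the recovered reads per summed reads, chosen after seeing the data, gave 40, 28 and 47; the cause was not tested. An unadjusted p under 0.05 gave 30 for D_DXZ vs Unt, 46 for D_MgHCF vs Unt and 10 for D_DXZ vs DOX. A fit of the 2 groups alone gave 15 for D_MgHCF vs DOX.

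The counts of called ratios to the host (67, 42, 35 and 62, and 0 for D_DXZ vs DOX) were 103, 96, 80 and 98 with a pseudocount of 1 FPKM, and 40, 15, 16 and 25 on recovered reads + 0.5, which changes both the scale and the added constant. A minimum of 0.5 FPKM left 12, 5, 3 and 9. An unadjusted p gave 64 for D_DXZ vs Unt, 59 for D_MgHCF vs Unt and 13 for D_DXZ vs DOX, TPM gave 72 for D_DXZ vs Unt, and the 2-group fit gave 40 for D_MgHCF vs DOX; the cause was not tested.

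Leaving out 1 library put the counts of transcripts between 16 and 31, 12 and 23, 17 and 40, 0 and 1, and 20 and 32 for DOX vs Unt, D_DXZ vs Unt, D_MgHCF vs Unt, D_DXZ vs DOX and D_MgHCF vs DOX, and those of ratios between 50 and 72, 24 and 53, 21 and 50, 0 and 1, and 44 and 65. The ratio count of D_DXZ vs Unt was 27 without Unt replicate 1, 24 without Unt replicate 2, 25 without D_DXZ replicate 2 and 26 without D_DXZ replicate 3; that of D_MgHCF vs Unt was 21 without Unt replicate 1, 23 without Unt replicate 2 and 21 without D_MgHCF replicate 2. The 1 call of D_DXZ vs DOX, for transcripts and for ratios, came without D_DXZ replicate 1.

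Over 47 results for single transcripts, 920 of 992 values kept direction and side of the threshold, 71 kept direction only and 1 turned: AC154335.1 in D_MgHCF vs DOX with TPM, 0.014 (adjusted p = 0.966, limma). Only 26 of the 47 were the same in every setting. The 47 had been chosen for passing the threshold. The 992 values include an unadjusted p, which could not lose a call, and fits without a library outside the comparison. They are therefore no measure of how stable the calls were. Libraries with the same replicate number deviated together only weakly (correlations from -0.314 to 0.306), so the numbers were not taken to pair them; a replicate block gave 21, 15, 26, 0 and 23 transcripts and 62, 39, 33, 0 and 56 ratios.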
